A study of Mus musculus with 6 samples.

Results

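The spliceosome gene module comprised 64 genes for the proteins of the small nuclear ribonucleoproteins (snRNPs), the LSm rings and the SR family. Members were chosen by name: symbols that begin with Snrp and a letter from a to g (11 genes), Snrnp (7), Lsm and a digit (13), Sf3a or Sf3b and a digit (9), Prpf and a digit (13) or Srsf and a digit (11), out of 24421 symbols in the count table. All 64 passed the filter on low counts and were among the 15988 genes tested.

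RNA was sequenced from cochlear explants of wild-type mice at postnatal day 2. Explants of the neomycin group were kept in culture for 12 h and then exposed over 6 h to 1 mM neomycin, an aminoglycoside that kills hair cells (HCs), and culture went on for 5 days in medium with 10 μM EdU, a label of DNA synthesis. The control group carries the treatment label control; the protocol text of its samples repeats the neomycin exposure, so what the control medium held is known only from that treatment label. There were 3 samples in each group, each from 6 to 8 pooled cochleae, and nothing in the labels says whether pools of a group came from separate litters or culture days, so that p-values measure the spread between these samples. Per the study's methods the modiolus, the tectorial membrane and the anlage of the stria vascularis were dissected away before culture. An explant is still a mixed tissue of HCs, supporting cells, mesenchyme, neurons and glia, and in such bulk RNA fewer cells of a type and less RNA per cell cannot be told apart.

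Splicing removes introns from pre-mRNA. The U1, U2, U4, U5 and U6 snRNPs, each a small nuclear RNA with its proteins, assemble on the intron in order: U1 meets the 5′ splice site, U2 the branch point, and the tri-snRNP of U4, U6 and U5 then joins to form the catalytic centre. Sm proteins form a ring on most of these RNAs, a related LSm ring sits on U6, and SR proteins bind exons and help to recruit the particles. These proteins are needed in every nucleated cell, and several PRP factors are known for inherited blindness when mutated.

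After neomycin, 26 of the 64 genes passed the test as higher and 4 as lower (adjusted p under 0.05 in edgeR's quasi-likelihood test, with Benjamini-Hochberg adjustment across the whole table), that is 40.6% and 6.25% of the members, beside 12.9% and 16.1% of all genes tested. Changes were small: no member passed a fold change of 1.5 together with that adjusted p, also at an unadjusted p under 0.05 and with DESeq2 or limma-voom, where 2.24% of all genes were higher and 6.6% lower past that fold. The count was 1 with upper-quartile scaling and 4 without neomycin replicate 1 (Snrpe, Snrpg, Lsm5 and Srsf4). Log2 fold changes (neomycin against control throughout) ran from -0.47 in Srsf4 to 0.58 in Lsm5, with a median of 0.19 against -0.00408 for all genes tested. In 37 members every neomycin sample lay above every control sample and in 8 below, beside 21.0% and 22.5% of all genes. Of the 26 that rose, 6 encode proteins of the Sm ring, 6 of the LSm rings and 6 of the SR family. Those that fell included Prpf8, Snrnp200 and Lsm11, whose exons add up to more than 6 kb each. With each sample's trend on exon length removed, 15 members were higher and 2 lower, 14 of the 15 being among the 26 and neither of the 2 among the 4, beside 8.78% and 11.5% of all genes. With each of the 6 samples left out in turn, the count of higher members ran from 17 (without neomycin replicate 2) to 31 (without control replicate 3), and 16 of the 26 were called in all 6 fits. The lower members numbered 1 without control replicate 1, control replicate 2 or neomycin replicate 2, and 2 without neomycin replicate 3, with Prpf8 called in all 6 fits. With total counts in place of TMM scaling, 21 members were higher and 5 lower, and the share of higher calls among all called genes was 29.7% in place of 44.5%.

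**Figure D1:**
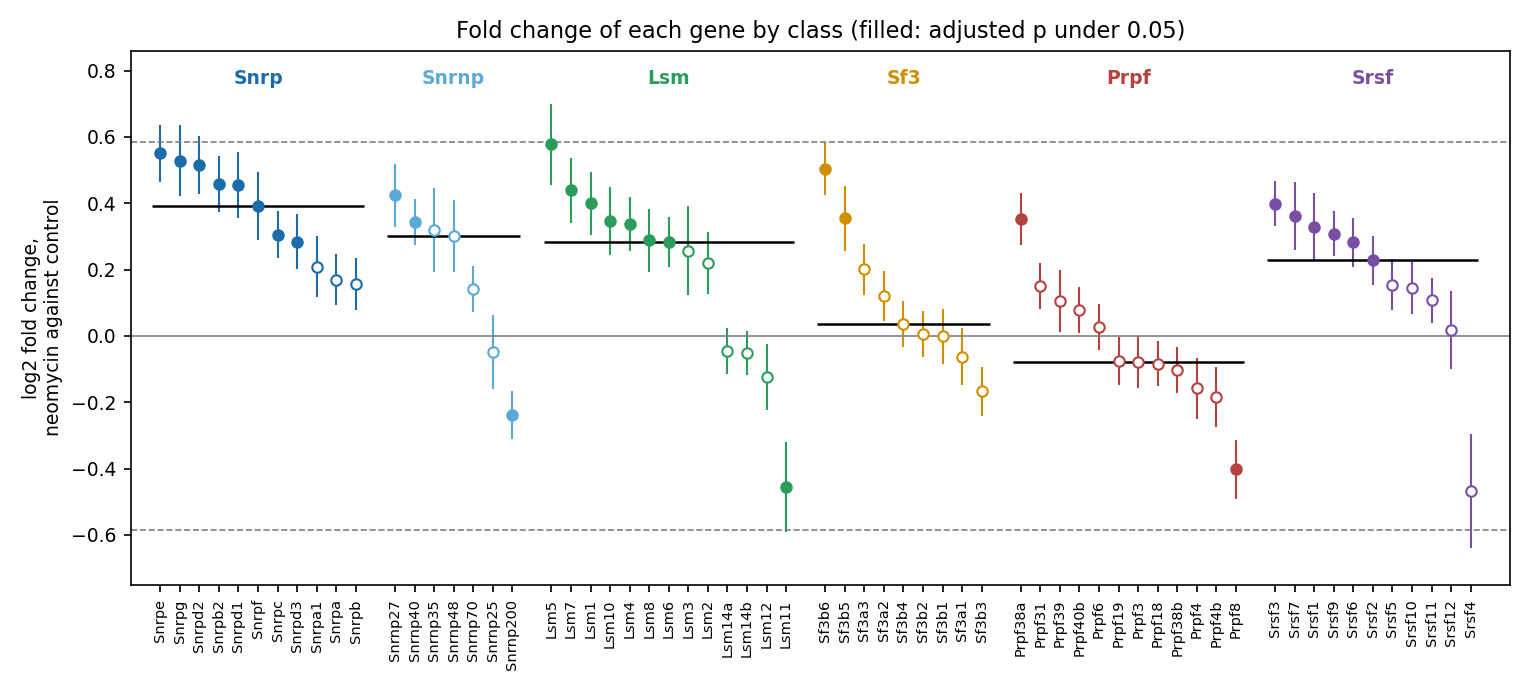
Log2 fold change (neomycin against control, vertical axis) of 63 of the genes, grouped by class and sorted within it. Points are edgeR estimates with bars of 1 standard error (n = 3 per group), filled where the adjusted p was under 0.05, black lines are medians of the whole class and dashed lines mark a fold of 1.5. All 11 Snrp genes lie above 0, with a median of 0.39, and no point passes the dashed lines.

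As promoter sequences, RefSeq windows from 250 bases before to 50 bases after the start site (GRCm38.p6) were matched by symbol for 54 of the 64 members. The letters CCGGAAG, the core bound by ETS factors, read on either strand, were in 21 of the 54 windows (38.9%), against 9.93% of the windows of all 27025 genes and 17.3% of those of 11958 tested genes. They were in 8 of the 21 windows of members that rose and in 13 of the other 33. Of members that fell, the window of Snrnp200 held them, and those of Prpf8 and Lsm11 did not. By class they were in 6 of 7 Sf3, 4 of 9 Snrp, 4 of 11 Srsf, 4 of 11 Prpf, 2 of 6 Snrnp and 1 of 10 Lsm windows. The 4 stretches shown here run from 150 bases before to 30 after the RefSeq start and read 5′ to 3′ on the gene's strand. They are those of 3 genes that rose and of Prpf8, which fell, with this motif in capitals. That of Snrpe holds it on both strands in 1 overlapping run, and that of Prpf8 does not hold it.
Snrpe, chr1:133610251-133610430, minus strand: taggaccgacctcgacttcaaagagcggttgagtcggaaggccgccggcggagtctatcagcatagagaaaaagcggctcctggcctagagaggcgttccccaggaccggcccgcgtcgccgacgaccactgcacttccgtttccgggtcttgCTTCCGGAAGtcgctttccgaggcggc
Snrpg, chr6:86371390-86371569, plus strand: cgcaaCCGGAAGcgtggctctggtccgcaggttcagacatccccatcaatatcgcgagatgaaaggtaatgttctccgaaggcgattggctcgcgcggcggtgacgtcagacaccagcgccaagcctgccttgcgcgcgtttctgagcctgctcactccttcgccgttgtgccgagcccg
Sf3b6, chr12:4817458-4817637, plus strand: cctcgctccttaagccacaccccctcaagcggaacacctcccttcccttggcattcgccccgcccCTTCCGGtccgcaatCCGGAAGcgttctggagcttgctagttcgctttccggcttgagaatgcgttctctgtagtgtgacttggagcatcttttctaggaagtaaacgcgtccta
Prpf8, chr11:75486627-75486806, plus strand: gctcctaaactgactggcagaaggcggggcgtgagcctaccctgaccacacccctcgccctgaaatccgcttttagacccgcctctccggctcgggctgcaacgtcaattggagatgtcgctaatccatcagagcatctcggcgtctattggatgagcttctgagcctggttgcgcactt
A match of letters is a description of the window and not a bound site. RefSeq starts differ from the gene starts of the GENCODE annotation used below. The Snrpg stretch lies inside the GENCODE bounds of that gene (86371304 to 86379328), so its motif comes after the GENCODE start. The Prpf8 stretch ends before the GENCODE start of that gene (75486816).

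Other promoter letters were counted in the same 54 windows, on both strands, and none of the strings contains another. The NRF1 letters, GCGCA and GCGC with 1 free base between them, were in 14 windows (25.9%), against 10.0% of the tested genes, and the YY1 letters ATGGCGG were in 10 (18.5%), against 8.17%. The GC box letters GGGCGG were in 40 (74.1%), against 65.5% of the tested genes. The CCAAT letters were in 21 (38.9% against 41.9%) and the TATAAA letters in 5 (9.26% against 9.36%). The NRF1 letters were in 5 of the 21 windows of members that rose and in 9 of the other 33.

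Each sample held 50471116 to 66068108 counts, of which the 64 genes took 0.521% to 0.546% in control and 0.560% to 0.571% after neomycin. HC markers were present in control and lower after neomycin: 17 of 18 fell, and their summed level was 1024 to 1189 CPM (counts over the TMM-scaled library size) in control and 362 to 427 CPM after neomycin. Myo7a fell from 27.2 to 12.3, Pou4f3 from 25.2 to 5.60 and Slc26a5 from 25.8 to 1.61 CPM. The summed level of 12 supporting cell markers was 3687 to 4241 CPM in control and 4611 to 4762 CPM after neomycin. In this list 2 were higher (S100a1 and Gjb6) and 3 lower (Jag1, Fgfr3 and Prox1). S100a1 was the largest part of the sum, with a mean of 1561 CPM in control and 2144 CPM after neomycin. Among the other markers of the list, Sox2 had 79.3 and 91.9 CPM (edgeR adjusted p = 0.064) and Sox9 87.1 and 94.1 CPM (edgeR adjusted p = 0.41). In the other lists, with log2 fold changes of single genes in brackets, of 10 macrophage markers 4 rose (87.9 to 116 against 121 to 151 CPM) and of 9 endothelial markers 7 fell (284 to 318 against 268 to 318 CPM, most of it Emcn), while 4 fell and 1 (Syt1, 0.37) rose of 11 neuronal (209 to 302 against 197 to 214 CPM), 2 fell and 1 (S100b, 0.88) rose of 8 Schwann cell (260 to 321 against 296 to 315 CPM) and 4 fell and 1 (Dcn, 0.64) rose of 10 mesenchymal markers (5973 to 6506 against 6325 to 6552 CPM). Of 13 proliferation markers 4 fell (373 to 424 against 348 to 395 CPM). The part of these shifts in the splicing genes was not tested.

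Among the Sm ring genes, 6 of 7 rose (median log2 fold change 0.46), and in all 7 every neomycin sample lay above every control sample. The ring of B, D1, D2, D3, E, F and G closes on U1, U2, U4 and U5 RNA and is loaded in the cytoplasm by the SMN complex. Snrpe (chromosome 1, 133603871 to 133610291; coordinates of genes are those of GENCODE on GRCm38) had 52.4, 52.4 and 53.1 CPM in control replicates 1, 2 and 3 and 69.6, 73.8 and 87.8 CPM in neomycin replicates 1, 2 and 3. Control samples were nearly level and neomycin replicate 3 stood highest, with a log2 fold change of 0.55 (± 0.09, its standard error or SE, edgeR adjusted p = 0.00082). Snrpg (chromosome 6, 86371304 to 86379328) had 61.0, 66.8 and 81.0 CPM in control and 89.2, 102 and 110 CPM after neomycin. The groups were apart by less than the spread of the control samples, and the log2 fold change was 0.53 (± 0.11 SE, edgeR adjusted p = 0.0035). Snrpd2 (chromosome 7, 19149722 to 19153542) had 92.2, 90.02 and 108 CPM in control and 128, 139 and 148 CPM after neomycin, a log2 fold change of 0.52 (± 0.09 SE, edgeR adjusted p = 0.0014). Snrpd1 (chromosome 18, 10617775 to 10642079) had 58.2, 69.3 and 72.4 CPM in control and 79.8, 95.9 and 98.1 CPM after neomycin. Control replicate 1 was lowest and neomycin replicate 1 the lowest of its group, and the log2 fold change was 0.46 (± 0.10 SE, edgeR adjusted p = 0.0055).

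Snrpf (log2 fold change 0.39, edgeR adjusted p = 0.014) and Snrpd3 (0.28, edgeR adjusted p = 0.022) also rose, but each was called in only 3 of the 6 fits with a sample left out. With the length correction Snrpf lost its call (0.05, edgeR adjusted p = 0.65), also on the longest transcript (0.05, edgeR adjusted p = 0.63). Snrpd3 kept its call with both (0.27 and 0.26). Snrpb (chromosome 2, 130171414 to 130179403), which encodes the B protein and was the most abundant Snrp gene per kb of exon, had 112, 122 and 130 CPM in control and 131, 130 and 144 CPM after neomycin. The groups were barely apart, and Snrpb did not pass the test, with a log2 fold change of 0.16 (± 0.08 SE, edgeR adjusted p = 0.15). With the length correction Snrpe stood at 0.30, Snrpg at 0.23, Snrpd2 at 0.29, Snrpd1 at 0.22 and Snrpb at -0.13 on the log2 scale. Of these 5, the first 4 kept an adjusted p under 0.05, and with the length of the longest transcript Snrpe (0.15, adjusted p = 0.19) and Snrpd1 (0.11, adjusted p = 0.25) did not. Near-identical pseudogene copies, at 95% or more identity over at least 200 bp, were found for Snrpd1, Snrpe and Snrpf (1 each) and for Snrpd2 and Snrpg (2 each), and how reads that match several places were counted is not given in the sources used here.

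Of the U1 proteins, Snrpc, which helps U1 to hold the 5′ splice site, rose with a log2 fold change of 0.31 (edgeR adjusted p = 0.0080), from 58.9, 60.6 and 63.3 CPM to 75.1, 71.0 and 79.8 CPM. Every neomycin sample stood above the controls. Snrpc, which has 3 near-identical pseudogene copies, was at 0.09 (adjusted p = 0.37) with the length correction and at 0.50 on the longest transcript. Snrnp70 (chromosome 7, 45376453 to 45395742), the U1 70K protein and the most abundant Snrnp gene per kb, had 227, 230 and 227 CPM in control and 251, 246 and 257 CPM after neomycin. The groups did not overlap, yet the difference did not pass the test, with a log2 fold change of 0.14 (edgeR adjusted p = 0.14), and it was -0.03 with the length correction but 0.19 (adjusted p = 0.031) on the longest transcript. Snrpa, the U1 A protein, stood at 0.17 (edgeR adjusted p = 0.12).

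The U2 gene Snrpb2 (chromosome 2, 143063039 to 143072853), for the B″ protein that binds a stem loop of U2 RNA, had 57.2, 63.8 and 65.8 CPM in control and 77.1, 92.5 and 86.6 CPM after neomycin. The lowest neomycin sample lay above the highest control, and the log2 fold change was 0.46 (± 0.08 SE, edgeR adjusted p = 0.0023) or 0.33 with the length correction. Snrpa1, for its partner A′, had 0.21 (edgeR adjusted p = 0.10).

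**Figure D2:**
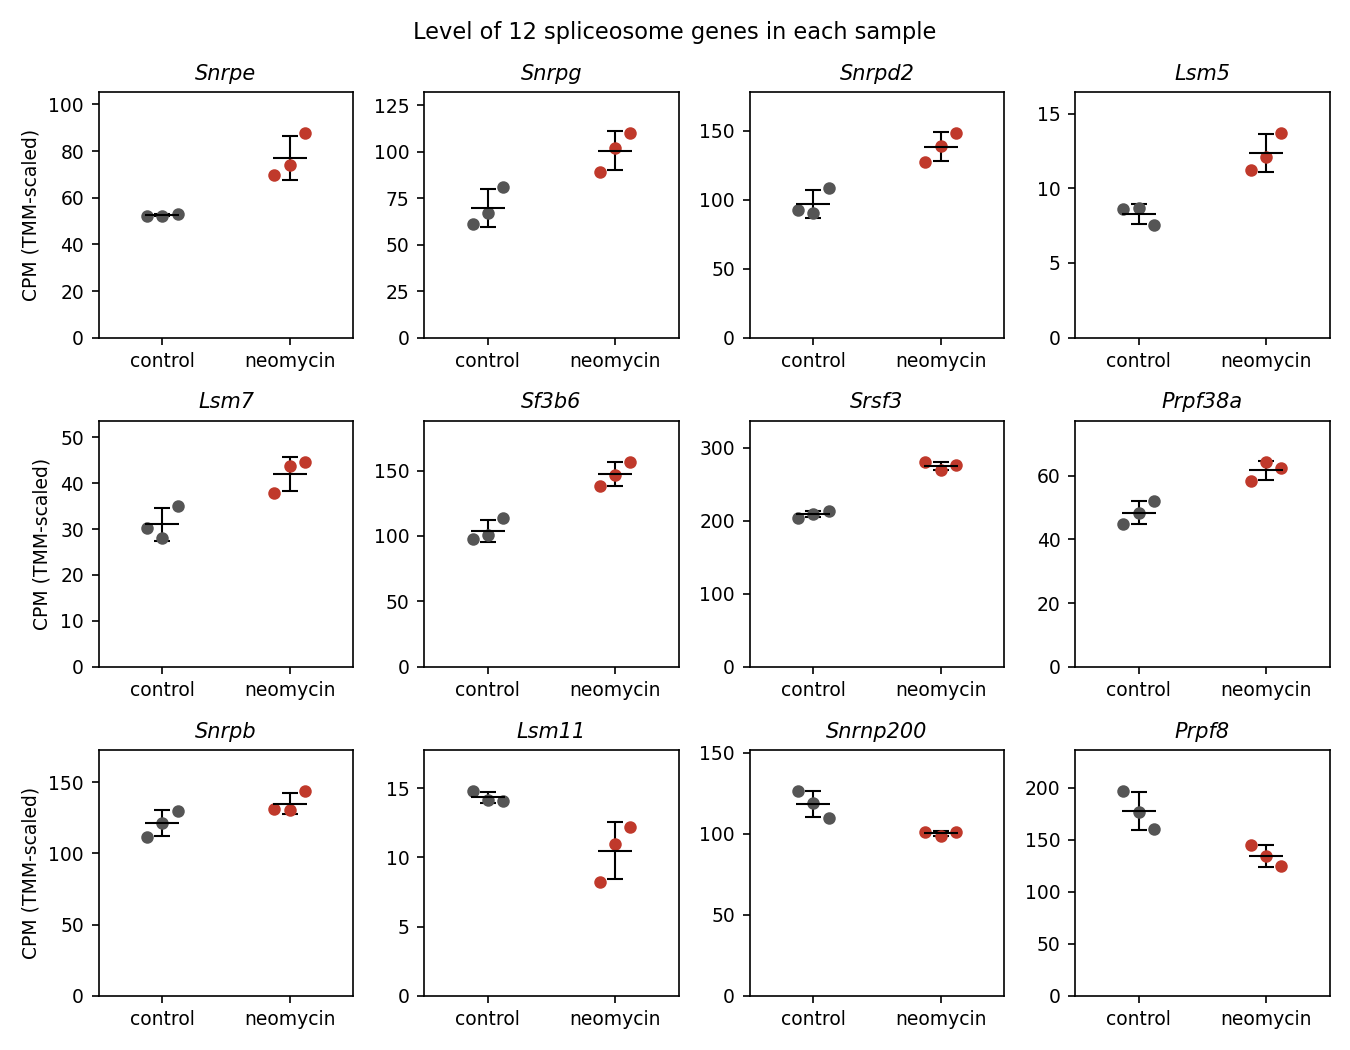
Level in CPM (counts over the TMM-scaled library size, vertical axes from 0) of 12 genes in each control and neomycin sample, with mean and SD bars (n = 3 per group). The samples of Snrpe sit between 52.4 and 53.1 in control and between 69.6 and 87.8 after neomycin, and those of Prpf8 between 160 and 197 and between 124 and 145.

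Of the SF3a and SF3b subunits of U2, 2 of 9 rose, both for small SF3b proteins, and the other 7 had log2 fold changes between -0.17 and 0.20 that did not pass the test. Sf3b6 (chromosome 12, 4817544 to 4827659), whose p14 protein touches the branch point adenosine, had 97.3, 101 and 113 CPM in control and 139, 147 and 157 CPM after neomycin. All 3 neomycin samples stood clear of the controls, with a log2 fold change of 0.50 (± 0.08 SE, edgeR adjusted p = 0.00092), and 0.22 with the length correction (adjusted p = 0.011). Sf3b5 rose too, from 56.9, 55.2 and 64.2 CPM to 64.9, 75.8 and 84.7 CPM, a log2 fold change of 0.35 (edgeR adjusted p = 0.017) that was called in 3 of the 6 fits with a sample left out. Sf3b1, the scaffold that clamps the branch helix, had 270, 321 and 301 CPM in control and 289, 308 and 294 CPM after neomycin, with overlapping groups and a log2 fold change of -0.00 (edgeR adjusted p = 0.99). Sf3b3 (chromosome 8, 110810239 to 110846787) was the lowest of the class, with 105, 108 and 102 CPM in control and 100, 93.8 and 87.1 CPM after neomycin. Its groups were narrowly apart, and its log2 fold change of -0.17 (± 0.07 SE, edgeR adjusted p = 0.10) did not pass the test. Cog4 overlaps its exons on the opposite strand, and the strand setting of the counting is not given in the sources used here. The 9 genes had a median of 0.04, which was -0.03 with total counts in place of TMM scaling.

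Of the LSm1 to LSm8 genes, 6 of 8 rose and all 8 had a positive log2 fold change, with a median of 0.31. LSm2 to LSm8 form the nuclear ring on the U6 tail, and LSm1 takes the place of LSm8 in the cytoplasmic ring that binds mRNAs shorn of their poly(A) tail. Lsm5 (chromosome 6, 56701063 to 56704710) had 8.61, 8.70 and 7.51 CPM in control and 11.2, 12.1 and 13.7 CPM after neomycin. Its groups were well apart and its log2 fold change, 0.58 (± 0.12 SE, edgeR adjusted p = 0.0046), was the highest of the 64. Lsm7 (chromosome 10, 80852821 to 80855209) had 30.2, 28.0 and 35.0 CPM in control and 37.8, 43.8 and 44.7 CPM after neomycin, a log2 fold change of 0.44 (± 0.10 SE, edgeR adjusted p = 0.0063). Lsm1 (chromosome 8, 25785288 to 25803975) had 23.0, 22.7 and 27.6 CPM in control and 30.4, 33.5 and 32.6 CPM after neomycin, a log2 fold change of 0.40 (± 0.10 SE, edgeR adjusted p = 0.0087). In both, control replicate 3 was the highest control and lay below every neomycin sample. Lsm3 (chromosome 6, 91515928 to 91522625), the most abundant LSm gene per kb, had 41.3, 51.4 and 54.3 CPM in control and 45.5, 62.2 and 67.8 CPM after neomycin. Neomycin replicate 1 lay among the controls, and the log2 fold change of 0.26 (± 0.13 SE, edgeR adjusted p = 0.17) did not pass the test.

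Lsm4, Lsm6 and Lsm8 rose by log2 fold changes of 0.34, 0.28 and 0.29, and Lsm2 stood at 0.22 (edgeR adjusted p = 0.096). With a sample left out, Lsm8 was called in 2 of the 6 fits and Lsm6 in 3. With the length correction, Lsm1 (0.35, adjusted p = 0.011) and Lsm6 (0.34, adjusted p = 0.0052) were the ring genes still called, both with exons of over 2 kb, whereas Lsm5 stood at 0.13 (adjusted p = 0.54), Lsm7 at 0.15 (adjusted p = 0.17), Lsm4 at 0.00441, Lsm8 at -0.05 and Lsm3 at -0.12. On the longest transcript Lsm8 kept its call (0.29, edgeR adjusted p = 0.036). Lsm6 has 3 near-identical pseudogene copies.

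Lsm10 and Lsm11 replace D1 and D2 in the ring of the U7 snRNP, which trims the 3′ end of histone pre-mRNA, and they moved apart, though neither call held with the length correction. Lsm10 rose from 16.3, 16.1 and 19.1 CPM to 19.8, 23.4 and 22.4 CPM, a log2 fold change of 0.35 (edgeR adjusted p = 0.025) that was called in 2 of the 6 fits with a sample left out and was 0.02 (adjusted p = 0.91) with the length correction. Lsm11 (chromosome 11, 45928269 to 45944935) fell from 14.8, 14.2 and 14.1 CPM to 8.19, 10.999 and 12.2 CPM, with neomycin replicate 1 lowest and no overlap. Its log2 fold change was -0.45 (± 0.14 SE, edgeR adjusted p = 0.026), but the adjusted p lay between 0.062 and 0.074 without control replicate 1, control replicate 2, neomycin replicate 1 or neomycin replicate 2, and was 0.25 with the length correction. The exon length of Lsm10 was 943 bp and that of Lsm11 6453 bp. Lsm12, Lsm14a and Lsm14b, which are not part of these rings, had log2 fold changes of -0.12, -0.05 and -0.05, with overlapping groups and adjusted p of 0.38 or more (edgeR).

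**Figure D3:**
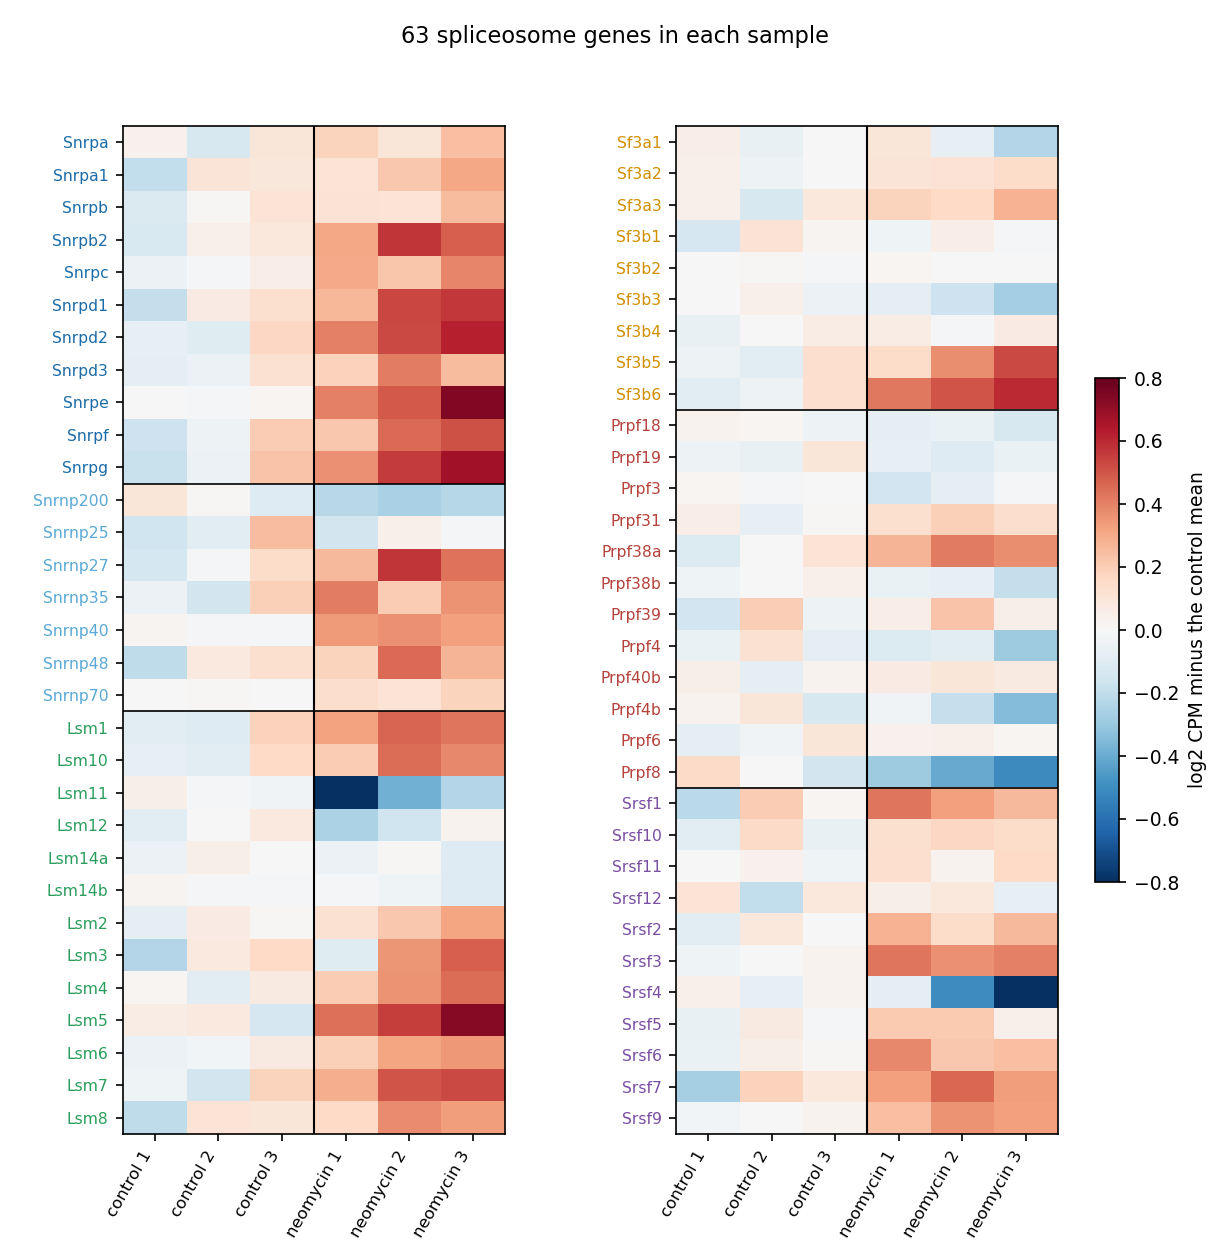
Difference of log2 CPM from the control mean (colour scale, -0.8 to 0.8) for 63 of the genes (vertical) in each of the 6 samples (horizontal), with horizontal lines between classes. Snrp genes are red in all 3 neomycin samples, and within each of the other classes both colours occur after neomycin.

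In the U5 snRNP and tri-snRNP, 2 of 8 genes rose and 2 fell. Snrnp27 (chromosome 6, 86675151 to 86684522), the 27K protein of the tri-snRNP, rose from 43.3, 47.4 and 52.9 CPM to 57.1, 70.9 and 64.6 CPM, a log2 fold change of 0.42 (± 0.09 SE, edgeR adjusted p = 0.0063). Snrnp40, a WD repeat protein of U5, rose from 36.6, 35.8 and 35.7 CPM to 45.6, 46.4 and 45.3 CPM, a log2 fold change of 0.34 (± 0.07 SE, edgeR adjusted p = 0.0034). Replicates of Snrnp40 were close, with a gap between the groups larger than either group's range. Prpf8 (chromosome 11, 75486816 to 75509449), the scaffold that holds the catalytic RNA, fell from 197, 177 and 160 CPM to 145, 134 and 124 CPM. Both groups were spread, without overlap, and the log2 fold change was -0.40 (± 0.09 SE, edgeR adjusted p = 0.0061). Snrnp200 (chromosome 2, 127208386 to 127240451), the helicase that unwinds U4 from U6, fell from 126, 119 and 110 CPM to 101, 98.7 and 101 CPM, a log2 fold change of -0.24 (± 0.07 SE, edgeR adjusted p = 0.027). Its call was lost without control replicate 1 or 2 or neomycin replicate 2 or 3, with adjusted p between 0.073 and 0.11. With the length correction Prpf8 stood at -0.17 (adjusted p = 0.072), Snrnp200 at -0.02 (adjusted p = 0.81), Snrnp27 at 0.20 (adjusted p = 0.063) and Snrnp40 at 0.14 (adjusted p = 0.17), so that none of these 4 calls held. Prpf3, Prpf4, Prpf6 and Prpf31, which join U4 and U6 to U5, had log2 fold changes between -0.16 and 0.15 and did not pass the test.

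The U11/U12 proteins of the minor spliceosome, which reads rare introns, had 0 calls of 3 in the edgeR fit without correction or replicate block. Of the 3, 2 had an unadjusted p under 0.05, and Snrnp48 passed with DESeq2 (adjusted p = 0.037) and limma-voom (adjusted p = 0.048). With a replicate block edgeR called Snrnp48 (adjusted p = 0.014) and Snrnp35 (adjusted p = 0.040) as higher. Snrnp35 had 8.43, 7.88 and 9.96 CPM in control and 11.6, 10.0 and 11.2 CPM after neomycin, a log2 fold change of 0.32 (edgeR adjusted p = 0.074). Snrnp48 had 17.8, 21.6 and 22.5 CPM and 23.3, 28.1 and 24.8 CPM, a log2 fold change of 0.30 (edgeR adjusted p = 0.054). In both the groups were narrowly apart, while those of Snrnp25 overlapped (-0.05). With the length correction Snrnp25 was called as lower (-0.39, edgeR adjusted p = 0.0046). On the longest transcript Snrnp48 was called as higher (0.52, edgeR adjusted p = 0.011).

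Of the other 8 PRP factors, 1 rose and 1 fell. The one that rose, Prpf38a (chromosome 4, 108563172 to 108579336), whose protein joins as the spliceosome is activated, had 44.7, 48.3 and 52.0 CPM in control and 58.4, 64.3 and 62.5 CPM after neomycin. No sample crossed over, and the log2 fold change was 0.35 (± 0.08 SE, edgeR adjusted p = 0.0059), or 0.14 with the length correction (adjusted p = 0.10) and 0.31 on the longest transcript (adjusted p = 0.0055). Prpf19, the ligase of the PRP19 complex, stood at -0.08 and the kinase gene Prpf4b at -0.18 (edgeR adjusted p = 0.15), both with overlapping groups.

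Among the SR proteins 6 of 11 rose, and Srsf4 had the lowest log2 fold change of all 64 members. SR proteins bind exonic enhancers through RNA recognition motifs, and their arginine and serine rich tails contact other splicing factors. Srsf3 (chromosome 17, 29032628 to 29043373), the smallest of the family, had 204, 209 and 213 CPM in control and 280, 269 and 276 CPM after neomycin. Both groups were tight and far apart, with a log2 fold change of 0.40 (± 0.07 SE, edgeR adjusted p = 0.0016), and 0.34 with the length correction (adjusted p = 0.0011), and Srsf3 has 3 near-identical pseudogene copies. Srsf1, a general activator of splicing, rose from 201, 269 and 236 CPM to 315, 293 and 279 CPM, a log2 fold change of 0.33 (edgeR adjusted p = 0.028). Control replicate 2 came close to neomycin replicate 3, and Srsf1, with 5558 bp of exon, was higher by 0.49 on the log2 scale with the length correction (adjusted p = 0.0033). Srsf7 (0.36), Srsf9 (0.31), Srsf6 (0.28) and Srsf2 (0.23) rose as well, and of all 6, Srsf3 and Srsf9 were called in each fit with a sample left out. With the length correction Srsf9 stood at 0.02 (adjusted p = 0.84) and Srsf2 at 0.10 (adjusted p = 0.35), and both calls were lost.

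Srsf5 (chromosome 12, 80945504 to 80950507), the most abundant of the 64 genes per kb, had 237, 260 and 245 CPM in control and 286, 286 and 255 CPM after neomycin. Neomycin replicate 3 lay among the controls, and the log2 fold change of 0.16 (edgeR adjusted p = 0.16) did not pass and was -0.03 with the length correction. Srsf4 (chromosome 4, 131873617 to 131901706) had 14.2, 13.2 and 14.1 CPM in control and 13.1, 9.76 and 7.20 CPM after neomycin. Neomycin replicate 1 lay just under the controls and the other samples of its group well below, so the spread within the group was wide. The log2 fold change was -0.47 (± 0.17 SE, edgeR adjusted p = 0.058), and Srsf4 was past the threshold with DESeq2 (adjusted p = 0.030), limma-voom (adjusted p = 0.037), no filter on low counts (adjusted p = 0.030) and the length correction (adjusted p = 0.036). A replicate block also called it (edgeR adjusted p = 0.022). RLE, upper-quartile or total-count scaling, the GC correction and the longest transcript did not (edgeR adjusted p from 0.051 to 0.066). With a sample left out, Srsf4 was called in 1 of the 6 fits. Gm12992 overlaps Srsf4 on the opposite strand. Srsf10, Srsf11 and Srsf12 stood between 0.02 and 0.14 with overlapping groups.

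Averaged over the genes of a class, the log2 ratio to the control mean separated the groups for Snrp, Snrnp, Sf3 and Srsf and not for Lsm and Prpf. For the 11 Snrp genes it was -0.10, -0.01 and 0.12 in control and 0.26, 0.38 and 0.45 after neomycin, so that replicate 3 was highest in both groups. For the 11 Srsf genes it was -0.06, 0.05 and 0.02 in control and 0.23, 0.17 and 0.11 after neomycin, with neomycin replicate 1 highest. For the 13 Lsm genes it was -0.06, -0.01 and 0.06 in control and 0.06, 0.23 and 0.27 after neomycin, where neomycin replicate 1 lay just below control replicate 3. For the 13 Prpf genes every sample lay within 0.10 of the control mean. In summed CPM, the Snrp class went from 788 ± 60.1 to 1010 ± 66.7 and the Srsf class from 1407 ± 90.7 to 1687 ± 46.5, while the Prpf class went from 995 ± 9.05 to 936 ± 22.7 (SD, n = 3 each).

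Fold changes followed exon length, in these genes as in all others. Across the 64 members Spearman's rho between log2 fold change and exon length was -0.643, and across 15862 tested genes with a length it was -0.484; these are descriptions across genes, which share the same 6 libraries and are not independent replicates. Under 1 kb of exon, the median log2 fold change was 0.34 for 7 members and 0.35 for all genes. From 1 to 2 kb the medians were 0.31 for 21 members and 0.21 for all genes, and from 3 to 4 kb 0.09 for 12 members and -0.02 for all genes. Over 6 kb, 7 members had -0.24 and all genes -0.25, and all 4 members that fell were in this bin. Within classes, rho was -0.75 over 9 Sf3 genes, -0.703 over 13 Prpf genes and -0.566 over 13 Lsm genes, but -0.118 over 11 Snrp and -0.0455 over 11 Srsf genes. GC content of the transcript had a rho of -0.189 over the members.

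**Figure D4:**
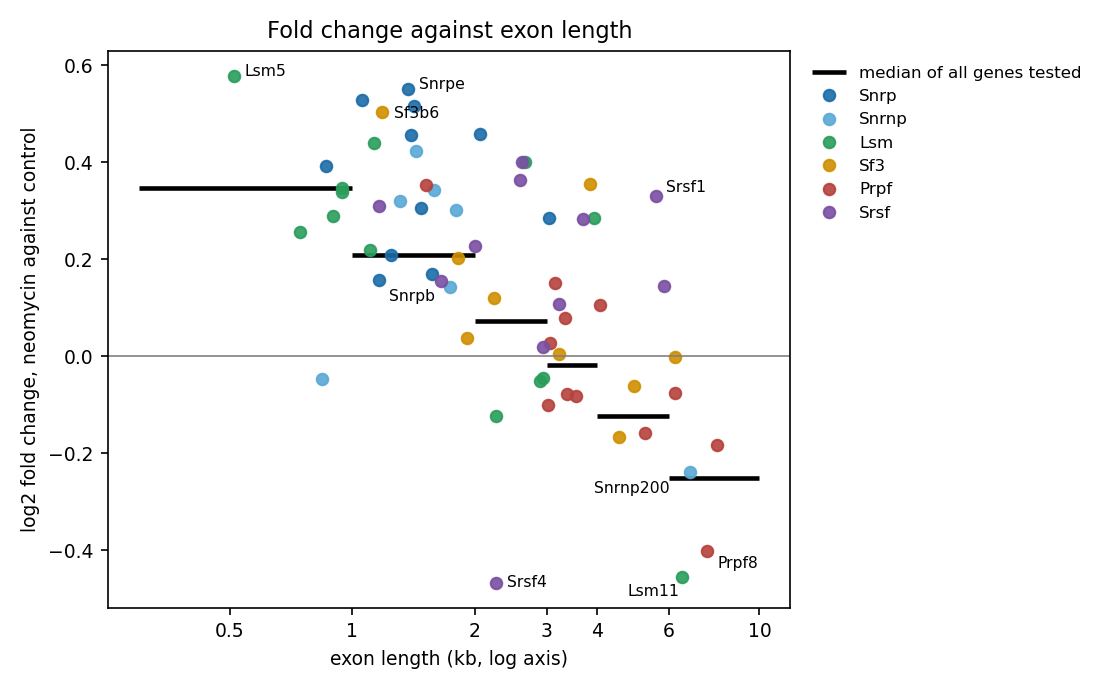
Log2 fold change (neomycin against control, vertical axis) against exon length in kb (log axis) for 63 of the genes, coloured by class. Black bars are medians of all genes tested in bins of length, from 0.35 under 1 kb to -0.25 over 6 kb, with the ends of the outer bins cut to the plotted range; Lsm5 lies at the upper left, Prpf8 and Lsm11 at the lower right, and Srsf1 well above the bar of its bin.

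The counts and medians of the classes changed with the length correction. Snrp had 6 genes higher of 11 in place of 8, with a median log2 fold change of 0.22 in place of 0.39. Srsf had 5 higher and 1 lower in place of 6 and 0, with a median of 0.11 in place of 0.23. Of these, Srsf1, Srsf3, Srsf6 and Srsf7 kept their call, Srsf2 and Srsf9 lost it, and Srsf10 (0.32, adjusted p = 0.0073) and Srsf4 were called with the correction alone. On the longest transcript Srsf7 (0.27, edgeR adjusted p = 0.056), Srsf10 (0.18, edgeR adjusted p = 0.085) and Srsf4 (-0.48, edgeR adjusted p = 0.059) were not called. Srsf10 has 2 near-identical pseudogene copies. Sf3 had 2 higher in both fits. Lsm went from 7 higher and 1 lower to 2 higher, and its median from 0.28 to -0.05. Snrnp went from 2 higher and 1 lower to 0 higher and 1 lower, with a median of 0.07 in place of 0.30, and the 1 lower was Snrnp25, which did not pass without the correction. Prpf kept none of its calls, 1 higher and 2 lower, with a median of 0.02 in place of -0.08. Called higher in the uncorrected fit and with both measures of length were 11 genes: Snrpb2, Snrpd2, Snrpd3, Snrpg, Lsm1, Lsm6, Sf3b5, Sf3b6, Srsf1, Srsf3 and Srsf6. Whether the length trend came from the RNA, the libraries or the cells was not tested.

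**Figure D5:**
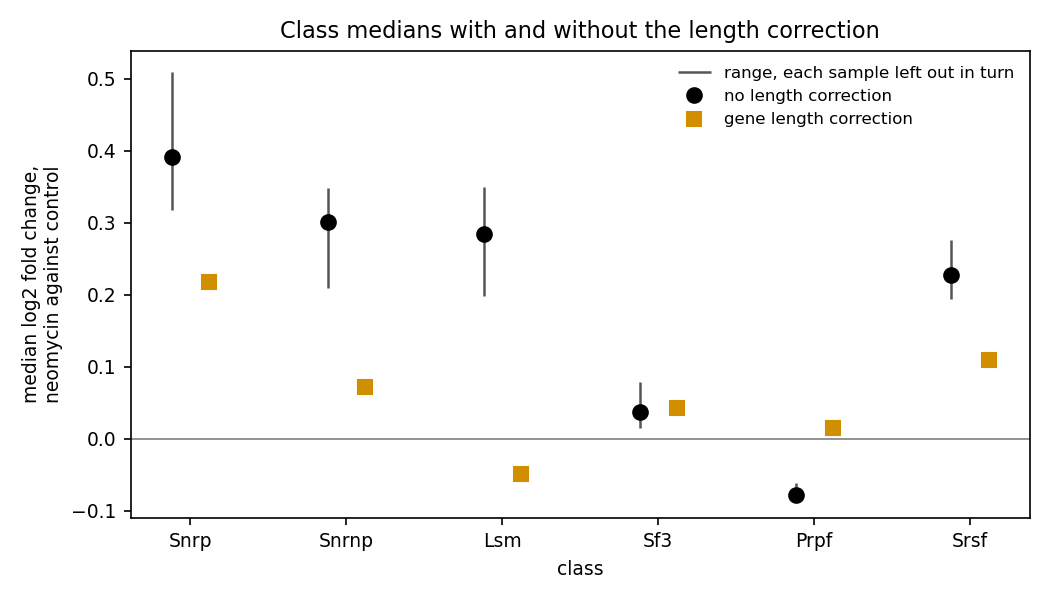
Median log2 fold change (neomycin against control, vertical axis) of each class, without length correction (circles) and with it (squares); grey lines span the medians with each sample left out in turn. Snrp moves from 0.39 to 0.22 and Lsm from 0.28 to -0.05, outside its grey line.

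Levels between genes were compared per kb of exon, as mean CPM over all 6 samples. Exon length here, and wherever a gene is named as most abundant per kb, was that of merged exons. For Srsf5 it was 1656 bp against 3482 bp for the longest transcript, and for Snrnp70 1735 bp against 4008 bp. Ranks per kb of the longest transcript were not computed and can differ. Srsf5 was highest at 158 CPM per kb, ahead of Snrnp70 at 138, Snrpb at 110 and Sf3b6 at 106. The lowest were Lsm11 at 1.92, Srsf12 at 3.78 and Prpf4 at 4.84. By class the median level was 56.5 for Snrp, 51.3 for Srsf, 25.8 for both Snrnp and Sf3, 20.1 for Lsm and 15.8 for Prpf.

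Pseudogene copies or overlapping exons could shift counts of 25 members, 10 of which rose. Of the 39 members with neither, 16 rose and 4 fell, with a median log2 fold change of 0.20. All 4 falls were thus in genes without such a copy or overlap.

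Genes of the wider splicing pathway were taken from lists outside the 64. Their values, here and in the next paragraph, are from the fit without length correction. In that fit the median of all genes tested ran from 0.35 under 1 kb of exon to -0.25 over 6 kb. The part of exon length in these lists was not tested. Beside the counts of each list, 12.9% of all genes tested were higher and 16.1% lower. Of 19 genes for snRNP assembly and import, 5 rose and 2 fell (median log2 fold change 0.19). Smn1, the scaffold of Sm ring assembly, rose from 19.9, 21.1 and 20.1 CPM to 24.7, 27.5 and 26.5 CPM, a log2 fold change of 0.36 (edgeR adjusted p = 0.0078). It was chosen after its values were seen. By the rule for named genes the list's ends were Naa38 (0.50, edgeR adjusted p = 0.0021) and Gemin5 (-0.27, edgeR adjusted p = 0.042). Naa38, an LSm-fold protein, is counted in the list, but nothing in these data places it in snRNP assembly or import. Gemin5 binds the snRNA in the SMN complex. Of 25 PRP19 complex and step factors, 8 rose and 2 fell, from Syf2 at 0.39 (edgeR adjusted p = 0.0044) to the helicase gene Dhx38 at -0.27 (edgeR adjusted p = 0.016). Of 30 other U2, U5, tri-snRNP and minor particle proteins, 4 rose and 2 fell, from Zcrb1 (0.36, edgeR adjusted p = 0.0087) to Pdcd7 (-0.27, edgeR adjusted p = 0.039), both proteins of U11/U12.

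Of 18 SR-related proteins, SR kinases and TRA2 genes, 5 rose and 4 fell, beside 12.9% higher and 16.1% lower of all genes tested. Clk2, an SR protein kinase of the nucleus, rose from 12.9, 15.2 and 17.1 CPM to 19.8, 21.5 and 21.3 CPM, a log2 fold change of 0.47 (edgeR adjusted p = 0.0079), and Srrm2, a large SR-related protein of nuclear speckles, fell from 356, 324 and 261 CPM to 231, 207 and 217 CPM, a log2 fold change of -0.52 (edgeR adjusted p = 0.0035). In both the groups were apart. The exon junction complex, which marks spliced mRNA, had 5 of 7 genes higher (median 0.30), the largest being Magohb at 0.49 (edgeR adjusted p = 0.0089). Of 26 hnRNP genes 1 rose, Hnrnpa0 (0.23, edgeR adjusted p = 0.034), and 2 fell, Hnrnpul1 the most (-0.37, edgeR adjusted p = 0.0063). Of 10 genes listed as partners of the LSm1 to LSm7 ring in mRNA decay, 3 fell and none rose with edgeR. At an unadjusted p under 0.05 in that test, 4 fell and none rose. The median of the 10 was -0.14. The 10 include Xrn2 (0.05) and Exosc10 (0.06), which nothing in these data ties to that ring. Xrn1, an exonuclease of mRNA decay, fell from 9.32, 8.88 and 6.21 CPM to 4.27, 2.56 and 2.68 CPM. Its log2 fold change was -1.36 (edgeR adjusted p = 0.00099).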

How the data were processed

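RNA-seq of 3 control and 3 neomycin pools of cochlear explants was used. Per the labels and the study's methods, the authors called bases with CASAVA 1.8, trimmed with Trimmomatic 0.23, aligned to mm10 with HISAT2 and deposited HTSeq read counts per gene symbol without normalization. Strand setting, handling of reads that match several places and annotation date are not given in the sources used here. Intervals marked SE come from the edgeR test, as the size of the log2 fold change over the square root of the F statistic. That test shares variance across genes, so these are not plain standard errors between samples. Intervals marked SD are between the samples of a group. Total counts ran from 50471116 to 66068108.

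Libraries were scaled with TMM, genes filtered with filterByExpr and neomycin tested against control over all 15988 genes with edgeR 4.0.16 (quasi-likelihood, Benjamini-Hochberg; R 4.3.3), with calls at an adjusted p under 0.05. The script was tested on simulated counts. Members and lists were chosen with earlier results of these data known. Named were the 12 called members with the largest log2 fold change, in each class the highest, the lowest and the most abundant per kb, members past a fold of 1.5, the called ends of each list and 5 tissue markers; others named with values were chosen after these were seen, to fill out each role.

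Exon lengths (the sum of merged exons, or the longest transcript) and positions came from GENCODE on GRCm38, with 23376 symbols matched directly and 669 as synonyms. The length correction removed from each sample the lowess trend (span 0.3) of its log2 ratio on exon length. Alternatives were DESeq2 1.42.0, limma-voom (limma 3.58.1), other scalings and filters, a replicate block, length and GC corrections and each sample left out in turn. The correction with the longest transcript was added after seeing the data. Pseudogene copies were sought with blastn 2.17.0. 1 member is counted but not reported here by name, and figures leave it out. Snrpn, dropped by the name rule, had 0 to 4 counts a sample.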

Additional observations from a re-analysis of the deposited data

How the results depend on the processing

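The count of higher members was 15 with the length correction, 16 with that on the longest transcript and 17 to 31 with a sample left out; lower members numbered 7 with the replicate block, 2 with the length correction, 1 with the longest transcript and 1 to 4 with a sample left out. Members past the fold of 1.5 numbered 1 with upper-quartile scaling, 1 with length correction and replicate block, and 0 (without neomycin 3) to 4 (without neomycin 1) with a sample left out. Class medians were, with the length correction (and with the replicate block as well), 0.219 (0.218) for Snrp, 0.0719 (0.0714) for Snrnp, -0.0490 (-0.0476) for Lsm, 0.0153 (0.0165) for Prpf and 0.109 (0.11) for Srsf. On the longest transcript they were 0.15, 0.11, 0.0202, 0.00463 and 0.17 in the same order. With total counts they were 0.23 for Snrnp, -0.0306 for Sf3, -0.15 for Prpf and 0.16 for Srsf. With a sample left out they ran from 0.32 to 0.51 for Snrp, 0.21 to 0.35 for Snrnp and 0.0147 to 0.0795 for Sf3. Among genes named by the rule, log2 fold changes turned with the length correction for Snrpb (-0.13), Snrnp70 (-0.0326), Lsm3 (-0.12) and Srsf5 (-0.0306), with the replicate block as well for Snrpb (-0.13), Snrnp70 (-0.0320), Lsm3 (-0.13) and Srsf5 (-0.0331), and on the longest transcript for Snrpb (-0.0197). Of members outside the rule, Lsm8, which was called as higher, turned to -0.0490 with the length correction, as did 9 that were not called, Snrpa (-0.0322), Snrpa1 (-0.0566), Lsm2 (-0.0793), Sf3a1, Sf3b1, Sf3b4, Prpf19, Prpf4b and Srsf12. The cause was not tested. Of the other values for named members, 345 kept direction and side of the threshold, 17 gained and 28 lost the call. Samples share only a number: deviations of same-numbered samples correlated at 0.165, 0.026 and 0.095, control 2 correlated best with neomycin 3, and with the replicate block 33 members were higher. With 3 samples a group and fold changes mostly under 1.5, calls near the threshold rest on single libraries; depth was ample, since no member was at or under 3 counts in a group.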
